A study of Mus musculus with 48 samples.

Results

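The 8 genes described here, Gad1, Gad2, Slc32a1, Lhx6, Pvalb, Calb2, Reln and Erbb4, mark GABAergic interneurons and were chosen by name, with no measured value in the rule. Each had a row in the Q3-normalized tables of all 4 brain regions assayed, so that 8 of the 15782 genes listed there were followed, in every region and every mouse.

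Interneurons are the local inhibitory cells of cortex and hippocampus. They make the transmitter GABA from glutamate with the glutamate decarboxylases GAD67 (Gad1) and GAD65 (Gad2), and load it into vesicles with the transporter VGAT (Slc32a1). Their classes differ in what else they hold. Cells from the medial ganglionic eminence depend on the transcription factor Lhx6 and include the fast-spiking cells with parvalbumin (Pvalb), while calretinin (Calb2) marks another class. Reelin (Reln) is a secreted matrix protein of neurogliaform and other interneurons, and Erbb4 is the neuregulin receptor through which excitatory input onto interneurons is built.

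RNA was counted in tissue sections of the left hemibrain with GeoMx digital spatial profiling (DSP), in which probe tags are released by light from a chosen area of illumination (AOI). The AOIs lay in the Cornu Ammonis 1 (CA) and dentate gyrus (DG) of the hippocampus, in the frontal cortex (FCT) and in the cortex (CT), 1 AOI per region and mouse, which gave 48 AOIs of 12 mice. The question was what 35 days of spaceflight do to transcription in these regions, and whether an antioxidant changes that.

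All mice were male C57BL/6, 10 weeks old at launch, and 3 mice formed each of 4 groups. FLT-SAL mice flew and received saline. GC-SAL mice received saline and stayed on the ground in flight hardware cages, on a schedule begun 3 days later. FLT-BuOE and GC-BuOE mice were kept in the same ways but received MnTnBuOE-2-PyP5+ (BuOE), a superoxide dismutase mimic, by subcutaneous injection of 1 mg/kg in 0.2 mL, from 7 days before launch and weekly after that. Flight mice reached the laboratory within 20 hours of splashdown, so return to gravity is part of the flight condition. Each group had its own slide, which carried the sections of its 3 mice, and slide and group cannot be told apart. An AOI held all cell types of its area, and fewer cells of a type and less RNA per cell cannot be told apart in it. Which AOIs of different regions came from the same mouse was read from the replicate numbers in the labels.

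The AOIs held 140 to 640 nuclei and 322629 to 1579380 deduplicated reads. The negative-control probes, which match no mouse transcript and give the background of an AOI, read 16.1 to 20.9 on the Q3 scale in CA, 9.24 to 13.5 in DG, 12.1 to 18.0 in FCT and 13.3 to 16.8 in CT. The background of CA thus lay above that of DG in every AOI. FLT-SAL AOIs averaged 521 nuclei, against 410 in GC-SAL, 451.5 in GC-BuOE and 400 in FLT-BuOE. Region labels were borne out by markers: Prox1 and C1ql2 of granule cells averaged 9.99 and 8.50 times the background in DG and no more than 2.17 times elsewhere, and Neurod6, a pyramidal cell gene, averaged 5.17 times the background in CA and 3.00 times in DG.

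The stretches in front of the start sites in the RefSeq promoter table, up to the next annotated exon, are printed for the genes of GABA synthesis and vesicle loading, since Gad1 and Slc32a1 are the members that differed between flight and ground in the average over regions and Gad2 makes the same product as Gad1. All lie on the plus strand of GRCm38, and the sequences come from the RefSeq promoter table for GRCm38.p6. Capitals in the Gad1 stretch (chr2:70561879-70562041, inside the span of Gad1, chr2:70553072-70602014) mark TTTATA, the reverse complement of the TATA box letters TATAAA. The Gad2 stretch is chr2:22622077-22622204 and ends where the span of Gad2 (chr2:22622205-22693874) begins with an exon. The Slc32a1 stretch is chr2:158610508-158610757, next to Slc32a1 (chr2:158610767-158615748).
Gad1: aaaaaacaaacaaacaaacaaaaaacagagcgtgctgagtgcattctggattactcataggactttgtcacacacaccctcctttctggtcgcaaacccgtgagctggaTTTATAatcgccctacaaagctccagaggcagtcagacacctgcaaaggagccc
Gad2: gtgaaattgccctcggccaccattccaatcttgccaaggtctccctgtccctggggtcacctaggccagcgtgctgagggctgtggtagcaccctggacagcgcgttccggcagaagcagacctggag
Slc32a1: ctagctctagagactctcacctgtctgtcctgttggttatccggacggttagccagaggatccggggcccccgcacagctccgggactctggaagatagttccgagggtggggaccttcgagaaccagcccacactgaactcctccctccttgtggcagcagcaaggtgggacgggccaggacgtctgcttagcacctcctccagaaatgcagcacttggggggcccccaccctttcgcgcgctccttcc

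Across the 10 promoters the table holds for 7 members (Calb2 has no entry), searched over 300 bases on both strands, TATAAA occurred in 2 (Gad1 and Lhx6), against 13.6% of all 32851 promoters. The GC box GGGCGG occurred in 4 (Gad1, Reln and 2 of the 3 entries of Lhx6), against 35.7%, and the E-box CAGCTG in 1 (Lhx6), against 16.3%. Neither the homeodomain core TAATTA, present in 5.29% of all promoters, nor the cyclic AMP response element TGACGTCA, present in 1.79%, occurred in any. The printed Gad2 and Slc32a1 stretches hold none of these letters. The other members lie at chr2:36081953-36105408 (Lhx6), chr15:78191114-78206400 (Pvalb), chr8:110137502-110168210 (Calb2), chr5:21884454-22344702 (Reln) and chr1:68032186-69108059 (Erbb4) on GRCm38, all on the minus strand.

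Values below are Q3-normalized counts, in which the deposited scaling sets the upper quartile of each AOI to the same level. They compare 1 gene between AOIs and not 1 gene with another, since each gene has its own probe. Gad1 and Gad2 stood at 1.5 times the background or more in 48 of 48 AOIs, Erbb4 in 46, Reln in 44, Slc32a1 in 43, Pvalb in 38, Lhx6 in 34 and Calb2 in 18. Calb2 lay below the background in 10 AOIs, Pvalb in 5 and Slc32a1 in 2. The raw counts behind the values ran from 4 (Calb2) to 219 (Gad1). Among mice of the same group and region, the variance of Lhx6 was 0.952 times what counting alone gives, that of Reln 1.12 times and that of Erbb4 1.25 times, so that depth set most of their spread. The ratio was 2.79 for Gad1 and 3.03 for Pvalb, the members with the most spread beyond counting.

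**Figure D1:**
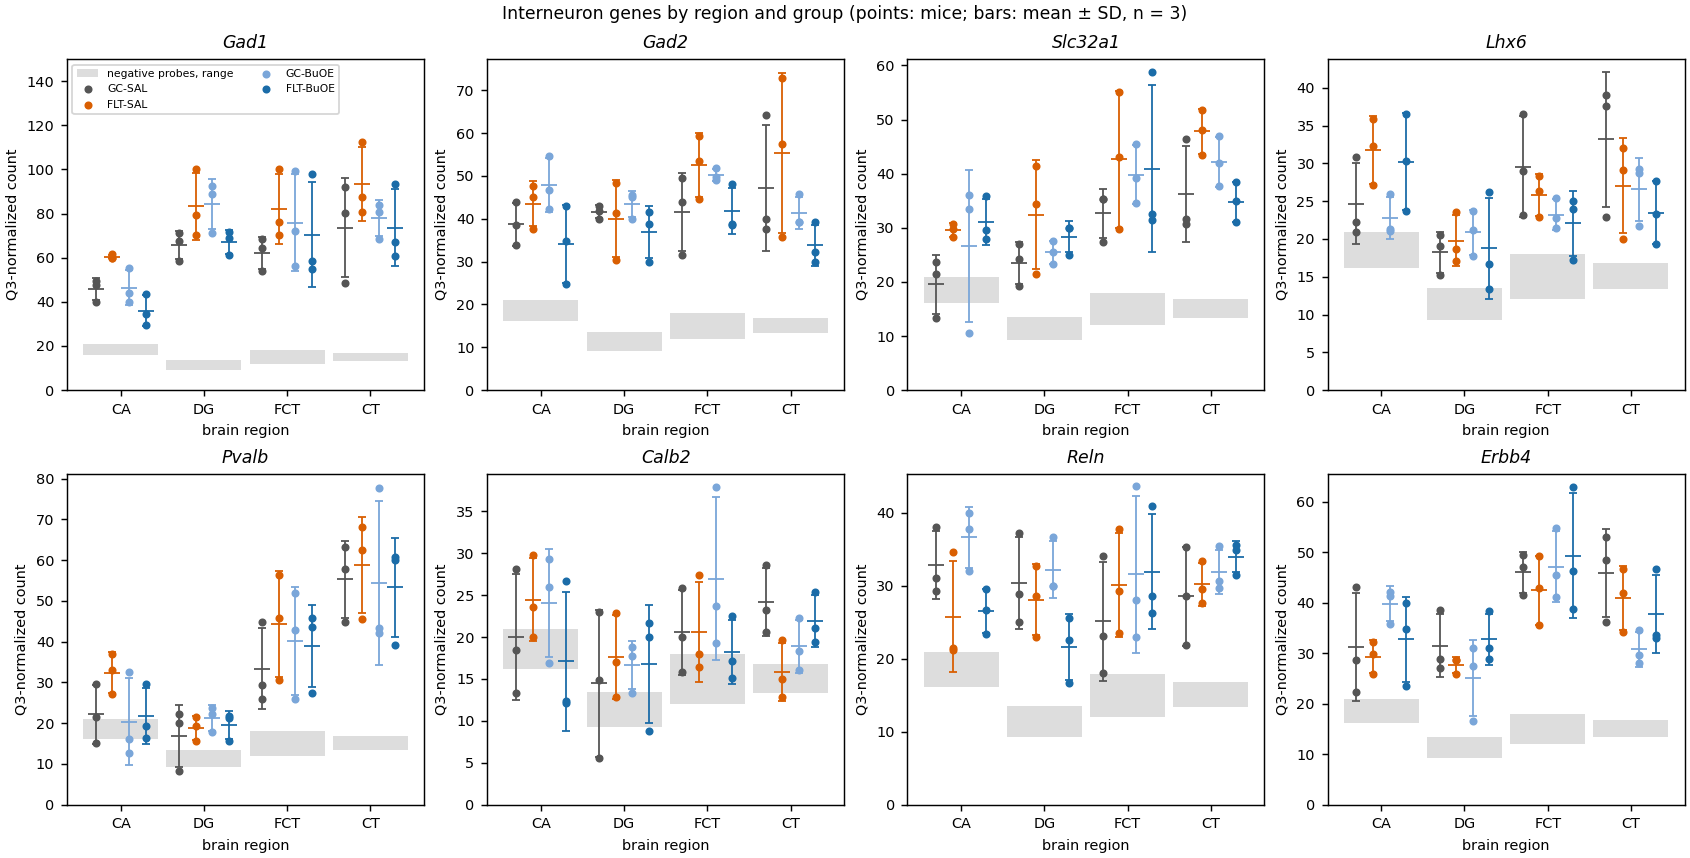
Q3-normalized count (vertical axis, linear, from 0) of each of the 8 genes in CA, DG, FCT and CT. Points are mice, coloured by group; the horizontal and vertical bars give mean ± SD of 3 mice, and the grey band is the range of the negative-control probes over the 12 AOIs of a region. Gad1 stands clear of the band everywhere, whereas Calb2 lies in or near it, and Pvalb is high in FCT and CT and near the band in CA and DG.

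Gad1, which encodes the enzyme that makes most GABA of the cell body, was lowest in CA. Its Q3-normalized counts there ran from 29.6 over a median of 45.9 to 61.6 in the 12 mice, with a mean of 47.2 ± 10.5 (SD, n = 12). DG values ran from 58.6 over 71.2 to 100.1 (75.1 ± 12.6), FCT values from 54.1 over 69.3 to 100.1 (72.7 ± 17.4) and CT values from 48.5 over 80.7 to 112.4 (79.6 ± 16.8). In each of the 12 mice the CA value was the lowest of the 4. Averaged over the groups, Gad1 was higher than in CA by a log2 difference of 0.68 in DG (adjusted p = 5.489e-09), 0.61 in FCT (adjusted p = 1.246e-07) and 0.75 in CT (adjusted p = 1.856e-10), by limma with the mouse as a random block and Benjamini-Hochberg adjustment over all genes. The FCT difference fell below the fold threshold, which was 1.5-fold in either direction, without FLT-SAL mouse 2 (0.58), GC-BuOE mouse 1 (0.53) or FLT-BuOE mouse 2 (0.52). No pair among DG, FCT and CT passed the adjusted p in Gad1, with log2 differences of -0.06 to 0.13.

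Gad2, whose enzyme sits largely at axon terminals, gave no such order in its Q3-normalized counts. Its 12 values ran from 24.8 over 42.6 to 54.8 in CA (41.1 ± 7.78), from 30.0 over 41.6 to 48.3 in DG (40.5 ± 5.51), from 31.6 over 48.6 to 59.4 in FCT (46.6 ± 7.55) and from 30.0 over 39.3 to 72.9 in CT (44.5 ± 13.3). These ranges overlap throughout, and none of the 6 region pairs passed the adjusted p. Between DG and CA the Gad2 difference was -0.01, with 4 mice higher in DG and 8 lower. CA had the higher background, however. Relative to it, Gad2 averaged 2.20 times in CA and 3.61 times in DG, with 3.27 times in FCT and 3.01 times in CT. With the background of each AOI subtracted, the DG-minus-CA difference of Gad2 was above 0 in most mice. It ran from -0.05 (GC-BuOE mouse 1) to 1.71 (FLT-BuOE mouse 1) on the log2 scale.

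Slc32a1, the vesicular GABA transporter, had lower Q3-normalized counts in CA and DG than in FCT and CT. CA values ran from 10.5 over 28.9 to 36.0 (26.7 ± 8.16) and DG values from 19.3 over 26.3 to 41.5 (27.4 ± 5.99). FCT gave 27.4 over 35.3 to 58.7 (39.0 ± 9.87), and CT gave 30.7 over 40.3 to 51.8 (40.3 ± 7.25). Every mouse had more Slc32a1 in FCT and in CT than in its DG, by log2 differences of 0.48 (adjusted p = 0.001436) and 0.54 (adjusted p = 0.0002144). With the background subtracted neither passed (adjusted p = 0.1813 and 0.08931). Against CA, FCT was higher by 0.57 (adjusted p = 0.0001557) and CT by 0.63 (adjusted p = 2.19e-05), in 11 of 12 mice each. Of these 4 differences CT against CA alone passed the fold threshold, and it dropped to 0.52 without GC-SAL mouse 2 and to 0.47 without GC-BuOE mouse 1. FCT against CA passed it, at up to 0.64, when 1 of 6 other mice was left out, and CT against DG passed it at 0.59 without GC-SAL mouse 3. DG and CA differed by 0.09, within the spread, over a higher background in CA. Relative to the background, Slc32a1 averaged 1.43 times in CA and 2.44 times in DG, with 2.74 times in FCT and 2.72 times in CT. With the background of each AOI subtracted, its DG-minus-CA difference was above 0 in most mice. The values ran from -0.46 (FLT-BuOE mouse 1) to 3.91 (GC-BuOE mouse 1, whose CA value lay below the background).

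The 3 genes of GABA synthesis and loading therefore differed between DG and CA to unequal extents. The difference was tested within mice, as a question raised after the values were seen, with an exact 2-sided sign-flip permutation test over 12 mice (4096 flips, 2 tests). The DG-minus-CA difference of Gad1 exceeded that of Gad2 in 12 of 12 mice, by 0.68 ± 0.38 (SD) on the log2 scale (exact p = 0.000488, adjusted p = 0.000977), and that of Slc32a1 in 10 of 12 mice, by 0.59 ± 0.58 (exact p = 0.00586, adjusted p = 0.00586). CA had the higher background. With the background of each AOI subtracted, Gad1 still exceeded Gad2 by 0.78 in 11 of 12 mice (exact p = 0.00146), whereas the Gad1 value exceeded that of Slc32a1 by only 0.0097 ± 1.5, in 7 of 12 mice (exact p = 0.983).

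**Figure D2:**
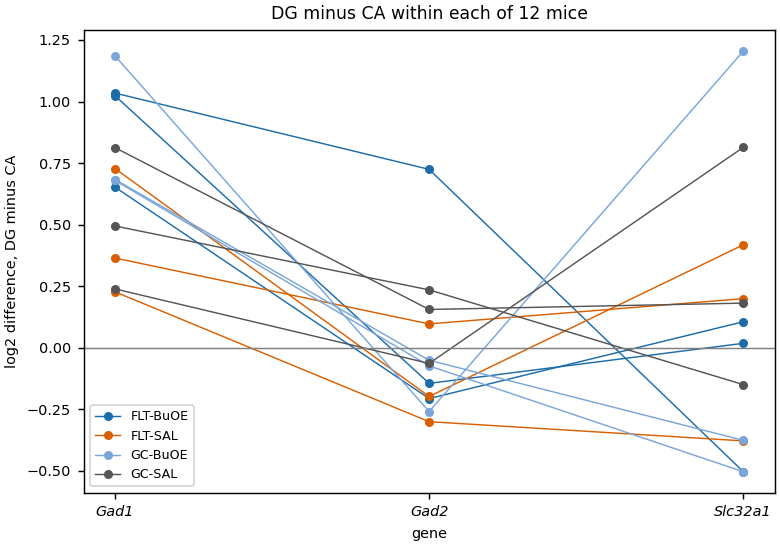
DG-minus-CA difference in log2(Q3-normalized count + 1) within each of 12 mice (1 line per mouse, coloured by group) for Gad1, Gad2 and Slc32a1. Gad1 is above 0 in 12 of 12 mice and Gad2 in 4, while Slc32a1 scatters on both sides. The background was not subtracted here.

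Lhx6, the homeodomain factor that specifies interneurons of the medial ganglionic eminence and stays on in the adult cells, was lowest in DG. Its values ran from 13.3 over 18.9 to 26.3 in DG (19.4 ± 3.8), from 21.0 over 26.5 to 36.5 in CA (27.4 ± 5.73), from 17.2 over 24.5 to 36.5 in FCT (25.2 ± 4.76) and from 19.4 over 28.2 to 39.1 in CT (27.6 ± 6.45). The DG difference was -0.47 against CA (adjusted p = 0.001596), with 9 of 12 mice lower, and CT exceeded DG by 0.47 (adjusted p = 0.001178) and FCT by 0.36 (adjusted p = 0.02175), in 10 of 12 mice each. None passed the fold threshold. Relative to the background, Lhx6 averaged 1.47 times in CA and 1.73 times in DG, the opposite order. With the background subtracted the DG-minus-CA difference was 0.079 (adjusted p = 0.8204), and the FCT and CT differences from DG no longer passed. FCT against DG also missed the adjusted p without GC-SAL mouse 3 (0.06349), FLT-SAL mouse 1 (0.07059), GC-BuOE mouse 3 (0.08123) or FLT-BuOE mouse 3 (0.0664).

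Pvalb, the calcium buffer of fast-spiking basket and chandelier cells, had the widest regional range of the 8 genes on this log2 scale. It read 8.28 over 20.6 to 23.8 in DG (19.1 ± 4.29), 12.6 over 24.3 to 36.9 in CA (24.2 ± 8.26), 25.9 over 43.2 to 56.5 in FCT (39.2 ± 10.7) and 39.3 over 58.9 to 77.7 in CT (55.5 ± 12.1). No CT or FCT value overlapped the DG values, and no CT value overlapped those of CA. CT exceeded DG by 1.5 (adjusted p = 5.974e-18) and CA by 1.21 (adjusted p = 3.117e-13), in 12 of 12 mice each. FCT exceeded DG by 0.99 (adjusted p = 7.687e-10) in 12 of 12 mice and CA by 0.70 (adjusted p = 1.264e-05) in 10 of 12, the latter dropping to 0.58 without GC-BuOE mouse 1. The hippocampal values stood near the background, at 1.30 times in CA and 1.70 times in DG.

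Pvalb also differed between the cortical regions. CT exceeded FCT by 0.51 (adjusted p = 0.03055), in 10 of 12 mice and short of the fold threshold. It missed the adjusted p with the background subtracted (0.6659) and when any of 7 mice was left out. Among saline mice these were GC-SAL mouse 2 (adjusted p = 0.11), FLT-SAL mouse 1 (0.08665) and FLT-SAL mouse 3 (0.2697), and among BuOE mice GC-BuOE mice 2 (0.09423) and 3 (0.1241) and FLT-BuOE mice 2 (0.06097) and 3 (0.05439). Without FLT-SAL mouse 2 or GC-BuOE mouse 1 the difference was 0.60 or 0.59 and passed both thresholds.

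Calb2, the calcium-binding protein calretinin, could not be ordered over the regions at this depth. Its values ran from 12.2 to 29.8 in CA, 5.52 to 23.0 in DG, 15.1 to 37.9 in FCT and 12.8 to 28.6 in CT, with medians of 21.8, 17.4, 19.6 and 20.1. The ranges overlap, and the level averaged 1.15 to 1.52 times the background in each region. No region pair passed the adjusted p. FCT exceeded DG by 0.42 (adjusted p = 0.05288 by limma), in 9 of 12 mice. DG differed from CA by -0.39 (adjusted p = 0.06239), with 8 of 12 mice lower. As a multiple of the background, Calb2 averaged 1.46 in DG and 1.15 in CA, the opposite order.

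Reln, the secreted signal that reaches neurons through Vldlr and Lrp8, had like Q3-normalized counts everywhere. Relative to the background it averaged 1.63 times in CA, 2.50 times in DG, 2.09 times in FCT and 2.11 times in CT. The Reln values ran from 21.2 over 30.4 to 40.02 in CA (30.5 ± 6.44), from 16.7 over 28.7 to 37.3 in DG (28.1 ± 5.96), from 18.0 over 28.4 to 43.7 in FCT (29.7 ± 7.87) and from 21.8 over 31.1 to 35.6 in CT (31.2 ± 4.10). No region pair passed the adjusted p, the differences lying between -0.11 and 0.16.

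Erbb4, a receptor tyrosine kinase of interneurons, was highest in FCT. It read 35.5 over 45.9 to 62.9 there (46.3 ± 7.40), 28.0 over 35.4 to 53.1 in CT (38.9 ± 8.18), 22.2 over 33.6 to 43.1 in CA (33.3 ± 7.41) and 16.7 over 28.7 to 38.6 in DG (29.3 ± 5.69). As a multiple of the background, Erbb4 averaged 3.25 in FCT, 2.63 in CT, 2.61 in DG and 1.79 in CA. On that scale CA and not DG was lowest. All 12 mice had more Erbb4 in FCT than in DG, by 0.65 (adjusted p = 3.437e-07), and than in CA, by 0.48 (adjusted p = 0.0002705), and the former passed the fold threshold. CT exceeded DG by 0.40 (adjusted p = 0.002537), a difference that missed the adjusted p with the background subtracted (0.1524). CT lay below FCT by a difference of -0.26 ± 0.106 (SE), in 9 of 12 mice, which did not pass (adjusted p = 0.406).

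**Figure D3:**
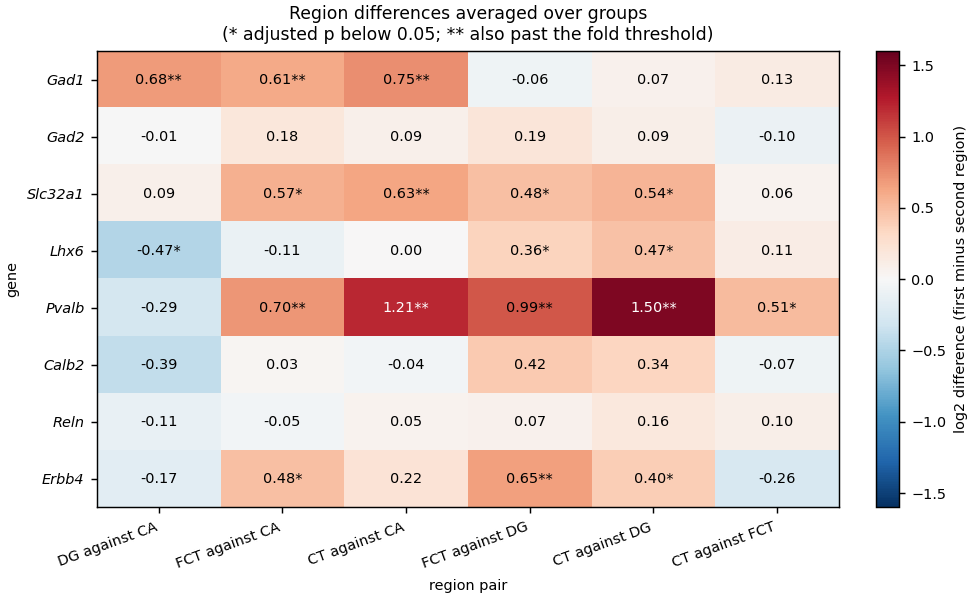
Log2 differences between regions (first minus second, averaged over the 4 groups, 12 mice) for the 8 genes (rows) in the 6 region pairs (columns); colour and printed value give the difference, 1 asterisk an adjusted p below the threshold and 2 asterisks also a difference past the fold threshold. Pvalb holds the largest values, up to 1.5 in CT against DG, and the rows of Gad2, Calb2 and Reln hold no asterisk.

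Of the 48 combinations of a member and a region pair, 18 passed the adjusted p and 9 also the fold threshold, in Gad1, Slc32a1, Pvalb and Erbb4. Region differences were common among all genes. DG against CA passed both thresholds in 1 member (4.10% of all genes) and the adjusted p in 2 (23.6%). FCT against CA did so in 2 (3.28%) and 4 (17.6%), and CT against CA in 3 (3.98%) and 3 (20.7%). FCT against DG gave 2 (4.54%) and 4 (17.7%), CT against DG 1 (5.79%) and 4 (21.0%), and CT against FCT 0 (0.101%) and 1 (0.786%). In a set of 8 genes the shares of all genes past the adjusted p amount to 1 or 2 members in the first 5 pairs. The count of 2 in DG against CA lies near that, and those of 3 or 4 in the other pairs lie above it. Calls lay furthest above the share of all genes in CT against CA. The excess was not tested.

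The regional differences came with differences in general neuronal and myelin genes. Of 7 genes of all neurons (among them Snap25, Syt1 and Stmn2), 6 were higher in FCT and 7 in CT than in CA at the adjusted p, with medians of 0.59 and 0.82 on the log2 scale against all-gene medians of -0.05 and -0.07. Their summed level ran from 690 to 939 in CA, 755 to 1061 in DG, 1158 to 1758 in FCT and 1124 to 2166 in CT. All 7 oligodendrocyte genes measured were higher in both cortical regions than in CA and than in DG. The summed markers of striatal spiny neurons, GABAergic cells of another region, ran from 223 to 339 in FCT and 249 to 321 in CT, against 237 to 305 in CA and 206 to 247 in DG. The cortical ranges overlapped that of CA, while no CT AOI overlapped those of DG. The part of neuronal RNA content in the member differences was not tested.

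Other genes of inhibitory neurons went with the members in part. Of 7 genes of GABA uptake and breakdown, 4 were higher in FCT and 5 in CT than in CA (medians 0.37 and 0.39). They include Glul, the glutamine synthetase of astrocytes, with 0.65 and 0.87. Of 8 genes of fast-spiking cells, 4 were higher in CT than in CA (median 0.31), led by the potassium channel Kcnc1 with 0.91. Of 16 other subtype markers, Sst, the somatostatin of Martinotti cells, and Lamp5 were higher in CT than in CA by 0.71 and 0.82, and Nos1 was lower, while the median was -0.01. Which cells gave the Lamp5 counts cannot be told from an AOI. Of 8 other transcription factors of the lineage, Satb1 alone was higher in CT than in CA (1.42), and this factor is also active in excitatory neurons. In FCT against CA, Satb1 (1.31), Sst (0.71) and Lamp5 (0.32) were higher at the adjusted p. Lower there were the factors Dlx2 (-0.35) and Dlx6 (-0.34) and the subtype markers Ndnf (-0.40), Crhbp (-0.36) and Calb1 (-0.49). The reelin pathway (7 genes) and the neuregulin pathway (7 genes) had medians of -0.05 and 0.05 in CT against CA, with 2 genes higher in each and 2 lower in the former.

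In the flight comparison of saline mice, Gad1 and Slc32a1 had positive differences in all 4 regions, none of which passed the adjusted p. Gad1 in CA read 47.7, 49.6 and 40.02 in the 3 GC-SAL mice and 60.03, 61.6 and 60.03 in the FLT-SAL mice, groups that do not overlap. In DG it read 67.6, 58.6 and 71.0 against 70.4, 79.5 and 100.1 under flight, and here 1 ground mouse lay inside the flight range. FCT gave 64.2, 68.3 and 54.1 on the ground and 70.3, 100.1 and 76.0 in flight, again with no overlap. In CT the values were 48.5, 92.1 and 80.0 against 87.3, 80.5 and 112.4, and the groups overlapped. The log2 differences were 0.40 and 0.33 in the hippocampal regions (CA, DG) and 0.39 and 0.38 in the cortical ones (FCT, CT).

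Slc32a1 was on the higher side as well, with more overlap. CA gave 21.6, 13.3 and 23.7 in GC-SAL and 28.3, 29.8 and 30.8 in FLT-SAL, so that all flight mice lay above all ground mice, and the GC-SAL mouse at 13.3 lay below the background range of CA. DG gave 19.3, 24.2 and 27.0 against 21.5, 34.3 and 41.5, FCT 27.4, 35.3 and 35.3 against 29.7, 55.0 and 43.2, and CT 31.5, 46.4 and 30.7 against 48.03, 43.5 and 51.8. The groups overlapped in these 3 regions. The differences were 0.61, 0.41, 0.34 and 0.41 from CA to CT.

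Gad2, Lhx6, Calb2 and Reln had differences of either sign. Gad2 differed by 0.16 and -0.08 in CA and DG and by 0.34 and 0.21 in FCT and CT. Pvalb was on the higher side in all 4 regions without passing the test. It read 21.6, 15.2 and 29.6 against 27.1, 36.9 and 33.1 in CA, with overlap, and its differences were 0.56 and 0.25 in CA and DG and 0.39 and 0.08 in FCT and CT. Calb2 in CT was the member whose groups separated downwards, with 20.6, 28.6 and 23.3 in GC-SAL and 19.6, 15.01 and 12.8 in FLT-SAL (-0.59). These flight values lay at or near the background of CT. Lhx6, Reln and Erbb4 had differences of -0.36 to 0.36, with no group pair free of overlap.

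**Figure D4:**
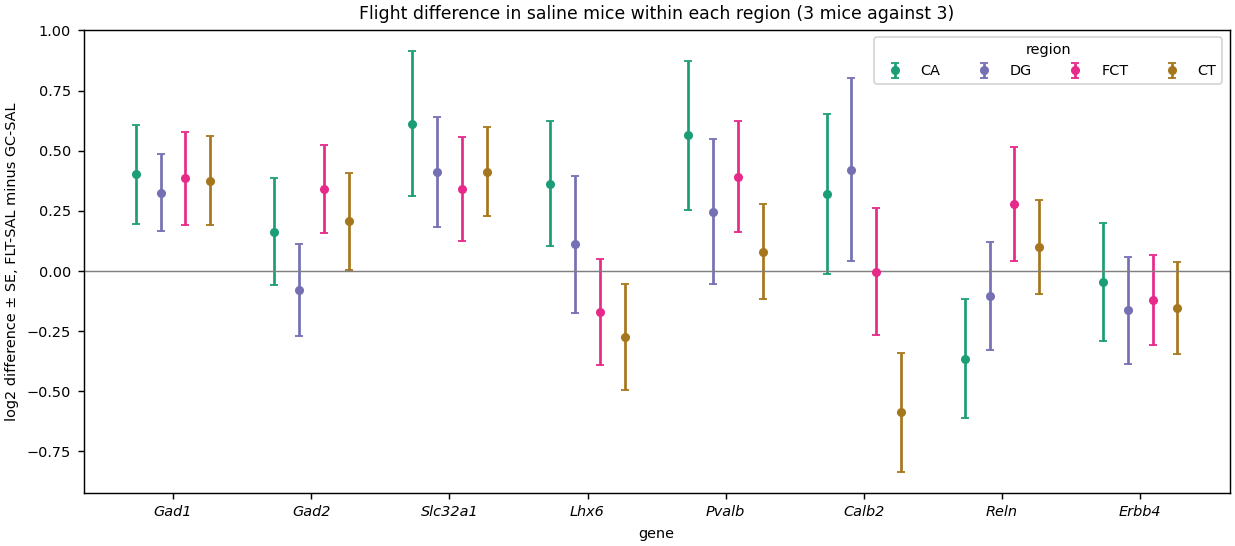
Log2 difference FLT-SAL minus GC-SAL (± SE from limma, 3 mice against 3) of the 8 genes in CA, DG, FCT and CT. Gad1, Slc32a1 and Pvalb are above 0 in all 4 regions and Erbb4 is below 0 in all 4, while Gad2, Lhx6, Calb2 and Reln lie on both sides of 0.

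None of the 32 combinations of a member and a region passed the adjusted p for FLT-SAL against GC-SAL by limma, where 0.136% of all gene and region pairs were called, nor by edgeR on the counts. DESeq2 called none either, but its filter left an adjusted p for only 5 of the 32. At an unadjusted p below the threshold of 0.05, limma gave 5 of 32 (6.27% of all pairs), edgeR 3 and DESeq2 1. The 5 were Slc32a1 in CA and CT, Gad1 in DG and CT, all higher, and Calb2 in CT, lower. The groups did not overlap in 4 of 32 (12.6% of all pairs), and 21 of 32 differences were positive, with a median of 0.23 against region medians of all genes between -0.01 and 0.03. The standard errors, 0.16 to 0.38 with 3 mice a side, were of the size of many of the differences. An exact permutation test of 3 against 3 mice cannot go below p = 0.1.

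Averaged over the 4 regions, 2 members passed the adjusted p. That fit treated the 4 AOIs of a mouse as nearly independent (consensus correlation 0.0255). Gad1 averaged 57.0, 67.1 and 61.3 per GC-SAL mouse and 72.0, 80.4 and 87.1 per FLT-SAL mouse, and Slc32a1 24.9, 29.8 and 29.2 against 31.9, 40.7 and 41.8. All 3 flight mice lay above all 3 ground mice in both genes (exact 2-sided permutation p = 0.1 each, the smallest possible). For such averages, in this and the other comparisons, the share of all genes without overlap was not determined. The limma difference was 0.37 ± 0.0998 (SE) for Gad1 (adjusted p = 0.0239) and 0.44 ± 0.128 for Slc32a1 (adjusted p = 0.0428). Neither reached the fold threshold, as 0.0950% of all genes did together with the adjusted p, while 1.85% of all genes passed the adjusted p alone. Pvalb had 0.32 (adjusted p = 0.362), Gad2 0.16, Calb2 0.04, Lhx6 0.01, Reln -0.02 and Erbb4 -0.12, none past the adjusted p, and the median of the 8 was 0.10 against 0.01 over all genes.

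Neither result kept its adjusted p in every fit with 1 mouse left out, which leaves 2 mice in that group. The differences in those fits ran from 0.32 to 0.44 for Gad1 and from 0.37 to 0.57 for Slc32a1. For Gad1 the adjusted p was 0.174 and 0.0891 with GC-SAL mouse 1 or 3 left out and 0.139 and 0.296 with FLT-SAL mouse 2 or 3 left out, with differences of 0.32 to 0.36 in these fits. For Slc32a1 it was 0.278, 0.0606 and 0.0582 with ground mouse 1, 2 or 3 left out, and 0.329 and 0.433 with flight mouse 2 or 3 left out. Subtracting the background gave 0.48 (adjusted p = 0.0622) for Gad1 and 0.99 (adjusted p = 0.0724) for Slc32a1, while edgeR kept both (adjusted p = 0.0263 and 0.0249). A test of whether the flight difference varied between regions passed in 0 of 8 members by limma (0.0444% of all genes), with 0 at an unadjusted p below 0.05 also in edgeR, and the member p-values ran from 0.110 (Calb2) to 0.99 (Gad1).

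Genes of other cell types differed in the same comparison. Of 7 genes of all neurons, 3 were higher in FLT-SAL at the adjusted p (Snap25 by 0.39, Eno2 by 0.37 and Syt1 by 0.33), with a list median of 0.28. The summed level of the 7 ran from 699 to 757 in GC-SAL and 900 to 939 in FLT-SAL in CA, 772 to 848 and 927 to 1061 in DG, 1158 to 1236 and 1287 to 1560 in FCT, and 1124 to 2166 and 1605 to 2153 in CT, so that the groups separated in 3 regions. Of 7 oligodendrocyte genes, 3 were higher (Mobp, a myelin protein gene, by 0.71, Mbp by 0.41 and Cnp by 0.39), with a median of 0.34. Of 8 excitatory neuron genes none passed in the average (median 0.09), but their summed level ran from 2092 to 2569 in GC-SAL and 2738 to 3323 in FLT-SAL in CA, and from 2185 to 2640 and 3044 to 3316 in DG, without overlap in either, and Nrgn was called in DG (0.64, adjusted p = 0.0004773). Of 7 astrocyte genes Aldoc alone did (0.35), and of 6 microglial genes none. FLT-SAL AOIs also held more nuclei and reads. The part of these in the Gad1 and Slc32a1 differences was not tested.

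Among the related lists, GABA uptake and breakdown had 2 of 7 genes past the adjusted p, both higher, among them Glul (0.49), and a median of 0.24. The fast-spiking list had 1 of 8, the potassium channel Kcna1 (0.46). None of the 8 transcription factors, 16 subtype markers, 7 reelin pathway genes and 7 neuregulin pathway genes passed, with medians of 0.07, 0.01, 0.02 and 0.05. Lamp5 was the gene on the subtype list whose flight difference varied between regions (limma F test, adjusted p = 0.0289).

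BuOE in flight mice was compared with saline in flight mice, a comparison that shares the 3 FLT-SAL mice with the flight comparison, so that a high FLT-SAL value makes the flight difference larger and the BuOE difference more negative. The lowest p belonged to Gad1 in CA, with 60.03, 61.6 and 60.03 in FLT-SAL and 34.5, 29.6 and 43.5 in FLT-BuOE, a log2 difference of -0.76 (unadjusted p = 0.0005096, adjusted p = 0.4233 by limma) that did not pass the adjusted threshold. All FLT-BuOE mice lay below all FLT-SAL mice there, and 2 of them below all GC-SAL mice. In DG the FLT-BuOE mice read 71.7, 61.3 and 68.9, in FCT 58.6, 97.8 and 55.0 and in CT 60.7, 93.4 and 67.0, each overlapping FLT-SAL. Gad2 in CT read 35.7, 57.5 and 72.9 in FLT-SAL and 32.3, 30.0 and 39.3 in FLT-BuOE (-0.64, adjusted p = 0.4192), with overlap, since FLT-SAL mouse 1 lay below FLT-BuOE mouse 3. Slc32a1 in CT read 48.03, 43.5 and 51.8 against 34.9, 31.1 and 38.5, without overlap (-0.45, adjusted p = 0.7541).

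None of the 32 combinations passed the adjusted p for FLT-BuOE against FLT-SAL (0.0269% of all pairs were called) in limma or edgeR, nor in DESeq2 among the 20 it gave an adjusted p. At an unadjusted p below 0.05, limma gave 3 (6.14% of all pairs), all lower, edgeR 5 and DESeq2 2. Groups did not overlap in 3 (11.7% of all pairs): Gad1 in CA and Slc32a1 in CT, lower, and Erbb4 in DG, higher. Of the 32 differences 23 were negative, with a median of -0.14.

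Averaged over regions, Gad1 was lower in FLT-BuOE than in FLT-SAL, with 56.4, 70.5 and 58.6 per mouse against 72.0, 80.4 and 87.1 (log2 difference -0.41 ± 0.0998 (SE), adjusted p = 0.0257 by limma). The averages of these groups did not overlap (exact 2-sided permutation p = 0.1, the smallest possible). Gad1 was the 1 member past the adjusted p, which 0.437% of all genes passed, and it did not reach the fold threshold, as 0.0317% did. The adjusted p was missed without FLT-SAL mouse 2 (adjusted p = 0.211) or 3 (0.301), without FLT-BuOE mouse 1 (0.282) or 3 (0.0521), with the background subtracted (0.0861) and in edgeR (0.0597). Gad2 had -0.36 (adjusted p = 0.116) and passed without FLT-SAL mouse 1, at -0.53 (adjusted p = 0.005517). Pvalb had -0.21 and Slc32a1 -0.15, and the median of the 8 was -0.15 against -0.04 over all genes. Mobp and Mbp fell by 0.53 and 0.41 in the same comparison, as did Glul by 0.36 and the excitatory neuron factor Neurod2 by 0.43, while 0 of 7 genes of all neurons passed. Whether these bear on the Gad1 value was not tested. In CT alone Lamp5 was higher by 1.19 in FLT-BuOE (adjusted p = 2.062e-05).

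**Figure D5:**
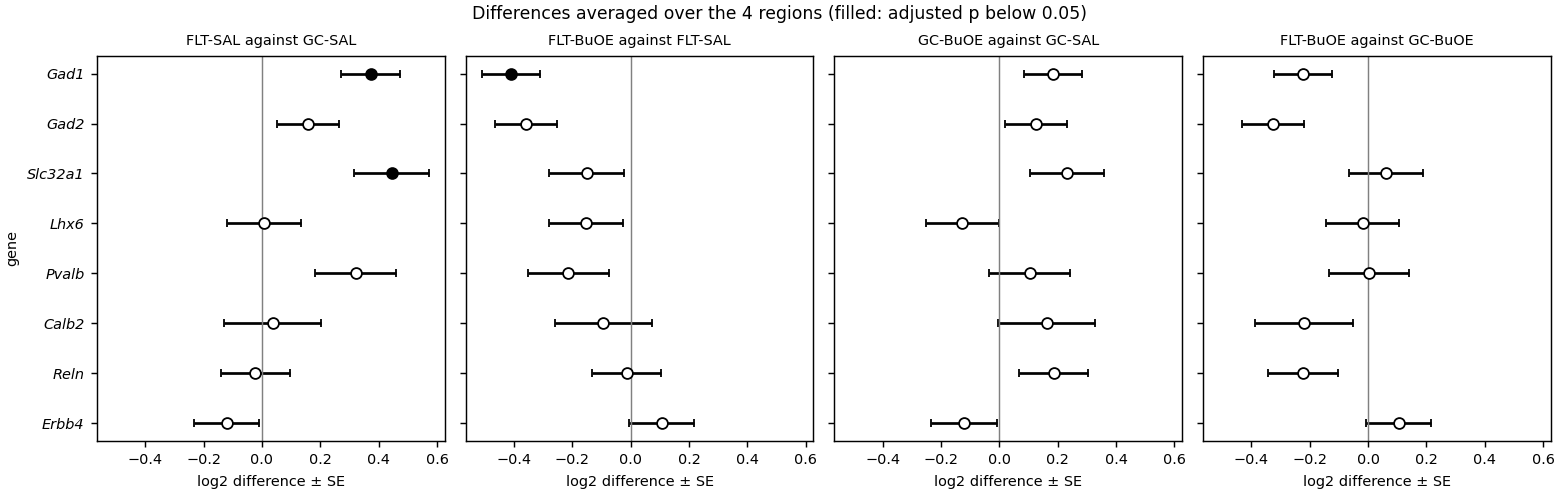
Log2 differences averaged over the 4 regions (± SE from limma, mouse as random block) for the 8 genes in the 4 group comparisons; filled points have an adjusted p below the threshold. Filled points are Gad1 (0.37) and Slc32a1 (0.44) for flight in saline mice and Gad1 (-0.41) for BuOE in flight mice.

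On the ground, BuOE left no member past the adjusted p. Gad1 in DG read 92.3, 71.3 and 88.9 in GC-BuOE against 67.6, 58.6 and 71.0 in GC-SAL (0.35), and Erbb4 in CT 29.7, 28.0 and 34.6 against 48.5, 36.2 and 53.1 (-0.55). In both the groups do not overlap, the 2 such cases of 32 (9.58% of all pairs). None of 32 was called by limma, edgeR or DESeq2 (0.00158% of all pairs), and 2 had an unadjusted p below 0.05 in limma (5.05% of all pairs), 2 in edgeR and 1 in DESeq2. Averaged over regions, 0 of 8 members passed the adjusted p and 0 were called, as for all genes (0% each), with 0 members at an unadjusted p below 0.05. Slc32a1 had 0.23, Reln 0.19 and Gad1 0.18, the last with 75.1, 67.8 and 70.3 per GC-BuOE mouse, each above the 3 GC-SAL mice (exact 2-sided permutation p = 0.1, the smallest possible). How common such a separation of averages is among all genes was not determined.

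Flight under BuOE gave no call either. Reln was lower in flight without overlap in CA (23.5, 26.7 and 29.6 in FLT-BuOE against 40.02, 32.0 and 37.9 in GC-BuOE) and in DG (16.7, 22.5 and 25.6 against 36.7, 30.0 and 30.0, a difference of -0.57), and Gad2 in FCT (38.6, 48.03 and 38.8 against 49.8, 51.9 and 49.1). These were the 3 such cases of 32 (10.9% of all pairs), 0 of 32 were called by limma (0.0459%) or edgeR and 0 of the 24 with an adjusted p by DESeq2, and 2 had an unadjusted p below 0.05 by limma (7.39%), 1 by edgeR and 0 by DESeq2. Averaged over regions, Gad2 had -0.33 (adjusted p = 0.156) and Gad1 -0.22 (adjusted p = 0.415), and 0 of 8 passed the adjusted p (0.672% of all genes) or were called (0.0887%), with 2 at an unadjusted p below 0.05. On the log2 scale the FLT-BuOE averages of Gad1, Gad2 and Calb2 lay below all GC-BuOE averages (exact 2-sided permutation p = 0.1 each, the smallest possible). The share of all genes that separate so was not determined.

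The interaction asks whether flight acted differently under BuOE than under saline. None of 32 combinations passed the adjusted p by limma, edgeR or DESeq2 (0.00792% of all pairs did), and 6 had an unadjusted p below 0.05 by limma (5.51% of all pairs), 4 by edgeR and 3 by DESeq2. Of the 6, 5 were negative: Gad1 in CA (-0.77) and DG (-0.64), Gad2 in CA (-0.66) and FCT (-0.61) and Slc32a1 in CT (-0.68). Calb2 in CT was positive (0.80). The median of the 32 was -0.33, with standard errors of 0.22 to 0.54, and a change of the flight difference by BuOE was not detectable for any single member and region at this number of mice.

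Over the 48 AOIs the members went together to unequal degrees. Pearson's r of log2 values was 0.63 for Slc32a1 with Pvalb, 0.47 for Gad1 with Slc32a1, 0.42 for Gad1 with Pvalb and 0.33 for Gad1 with Gad2. With region means taken out, these were 0.33, 0.32, 0.39 and 0.38. The AOIs share regions, mice, slides and depth, and the values are descriptions.

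The genes most like each member over the 48 AOIs were sought among 13829 genes whose mean was at least 1.5 times the background. For Slc32a1 they included Rabac1 (r = 0.78) and Id2 (0.77). For Pvalb they were Rgs4 (0.83), Dynll2 (0.83) and Cit (0.82), and for Gad1 Nmnat2 (0.77), Rph3a (0.76) and Mgat3 (0.76). Erbb4 was most like Rab15 (0.67), Etl4 (0.64) and Adgra1 (0.63), Lhx6 most like Cd99l2 (0.63), Ccdc85b (0.62) and Wdr45 (0.61), and Gad2 most like Cmip (0.57), Atf2 (0.55) and Hsp90ab1 (0.52). Calb2, itself too low to enter the pool, was most like Adh4 (0.61), Ccdc82 (0.60) and Creb3l1 (0.54), and Reln most like Bnip2 (0.54), Prps1l1 (0.51) and Sftpa1 (0.50).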

How the data were processed

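GeoMx DSP with the mouse Whole Transcriptome Atlas probes was run on 6 µm sections, in 48 AOIs of 12 mice, 3 mice in each of 4 groups per region. The authors turned reads into deduplicated probe counts with the GeoMx NGS Pipeline (version 2.3.4), and the deposited gene tables hold a Q3-normalized signal, the count of each gene scaled so that the upper quartile of every AOI is the same. The aligner is not given in the sources used here. The deposited tables of comparisons hold the authors' log2 fold changes and p-values and were not used. No per-sample column was left out. Whole counts were matched for 15779 of 15782 genes (99.98% of values within 0.02 counts), and 15777 genes matched the counts of exactly 1 probe.

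Tests were run on log2(Q3-normalized count + 1) with limma 3.58.1 (R 4.3.3), trend on, with the 12 AOIs of a region in 1 fit, or all 48 with the mouse as a random block for averages and region pairs. A call needed an adjusted p (Benjamini-Hochberg over all 15782 genes) below 0.05 and a difference beyond 1.5-fold in either direction; the interaction and the test of flight by region had no fold threshold. These differences are on the log2(value + 1) scale and understate the change of low genes. All 8 members also passed a filter that asked for 1.5 times the negative probes in at least 3 AOIs. Calb2 met it with only 3 of 12 AOIs in CA and in CT. Alternatives were pseudocounts of 0.5 and 5, that filter, background subtraction, no trend, a fit with only the groups compared, a replicate block, a nuclei covariate, edgeR 4.0.16 and DESeq2 1.42.0 on the counts, and each mouse left out. Single values were compared with exact permutation tests in scipy 1.17.1. The scripts were tested on simulated data. The comparison of Gad1 with Gad2 and Slc32a1, its background subtraction and the per-mouse averages were chosen after seeing the data. The members, the lists of other genes and the rule for named genes (all members, listed genes where called or few, and the 3 genes most like each member) were chosen with earlier results of these data known. Some results for other listed genes are not reported here.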

Additional observations from a re-analysis of the deposited data

How the results depend on the processing

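Within regions no member was called in any comparison under any alternative, and leaving out each mouse in turn gave 0 to 0 calls for each comparison, for the averages over regions and for flight by region. The 9 calls between regions became 7 to 11 with a mouse left out, 13 with the background subtracted and 7 with a pseudocount of 5. Of the alternatives to 46 member differences, 844 kept direction and side of the threshold, 39 lost the adjusted p, 1 gained it and 1 reversed, Lhx6 in DG against CA with the background subtracted (0.079, adjusted p = 0.8204 by limma). The cause was not tested. Without the trend in limma, the averaged differences of Gad1 (adjusted p = 0.138 for flight, 0.180 for BuOE in flight) and Slc32a1 (0.156) and Pvalb in CT against FCT (0.186) no longer passed. Of 197 other member differences, 89 changed sign under at least 1 alternative, and 7 passed the adjusted p under an alternative. Ranking likeness by Spearman's rho kept 8 of the 24 genes.

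Over all genes, limma called 86 gene and region pairs for FLT-SAL against GC-SAL, edgeR 182, the replicate block 144 and limma without trend 6. The numbers were 17, 52, 68 and 3 for BuOE in flight mice, 1, 19, 1 and 0 for BuOE on the ground, 29, 48, 48 and 0 for flight under BuOE, and 5, 17, 12 and 1 for the interaction. DESeq2 gave 108, 45, 0, 12 and 3, background subtraction 65, 9, 0, 18 and 5, the nuclei covariate 80, 14, 7, 13 and 5, and fits of only the groups compared 127, 19, 5 and 29 without the interaction.

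Replicate numbers tied mice of different groups weakly at most. The deviations of same-numbered mice correlated with a median r of 0.0174 to 0.0321 per region, and those of differently numbered mice with -0.0097 to -0.0039. A replicate block called 0 members within regions, and region pairs had 9 calls with the mouse as a fixed block and 9 with no replicate block. DESeq2 was not run on fits across regions, and the nuclei covariate was used within regions only.

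Depth limits the low members: Calb2 was at 1.5 times the background in 18 of 48 AOIs. With 3 mice a group, an exact permutation test cannot go below p = 0.1. Within a region, p-values measure the spread between mice on 1 slide per group. The fits of all 48 AOIs used a consensus correlation of 0.0255 between AOIs of 1 mouse. Their p-values rest mostly on the spread between AOIs and treat those of a mouse as nearly independent.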
